A study of Mus musculus with 6 samples.

Results

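The genes described here were 10 components of the circadian clock, the cell-autonomous timer that gives much of the liver transcriptome a daily rhythm. They were chosen by symbol from the gene table: Clock, Npas2, Per1, Per2, Per3, Cry1, Nr1d1, Nr1d2, Dbp and Tef. All 10 were among the 17975 genes of the table and all 10 were among the 13805 genes with enough counts to be tested. RNA was sequenced from the livers of 3 NEK7 hepatocyte knock-out (Hom) mice and 3 wild-type (WT) mice, 1 liver per mouse. Hom mice carried 2 floxed Nek7 alleles and Cre recombinase under the albumin promoter (Alb-Cre), which is active in hepatocytes, so that Nek7 was kept in the other cells of the liver. The labels give the controls only as Ctrl and WT, and do not say whether those mice carried floxed alleles or Cre. No drug or special diet is given for either group, and the study's methods describe free access to food and a light/dark cycle. The age and sex of these mice and the hour at which each liver was taken are not given in the labels, so that a difference by genotype and a difference by hour of collection cannot be told apart.

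In the mammalian clock, the transcription factor BMAL1 (encoded by Arntl) pairs with CLOCK or its paralog NPAS2 and binds E-boxes. The pair drives the Per and Cry genes, whose proteins return to repress it, and the Nr1d genes, whose products REV-ERBα and REV-ERBβ repress Arntl, Npas2, Clock, Cry1 and Nfil3 through ROR elements. It also drives Dbp and Tef, which encode PAR bZIP activators that bind D-boxes, the same sites that the repressor NFIL3 binds. In the livers of mice kept in light and dark, transcripts of the Per, Nr1d, Dbp and Tef genes are known to be high in the light phase or the early evening, and those of Arntl, Npas2, Clock and Cry1 late in the night or the early morning.

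Promoter sequences are shown for 6 of the clock genes in which a clock motif was found close to the start site, as examples of the E-box, the D-box and the ROR element core through which these genes act on each other. They end 50 bases after the start site, are 300 bases long and come from RefSeq on GRCm38.p6, which held 9 of the 10 members (Per2 had no entry). Capitals mark an E-box (CACGTG), an E'-box (CACGTT, or AACGTG on the other strand), a D-box (TTATGTAA or TTACGTAA) or the core of a ROR element (TAGGTCA, or TGACCTA on the other strand). Both strands were searched, and no match of one motif overlapped a match of another in the sequences shown. The windows are Per3 at chr4:151044616-151044915 (minus strand), Per1 at chr11:69098699-69098998 (plus), Tef at chr15:81802423-81802722 (plus), Cry1 at chr10:85185005-85185304 (minus), and, of the clock genes outside the 10, Nfil3 at chr13:52980990-52981289 (minus) and Arntl at chr7:113207261-113207560 (plus).
Per3: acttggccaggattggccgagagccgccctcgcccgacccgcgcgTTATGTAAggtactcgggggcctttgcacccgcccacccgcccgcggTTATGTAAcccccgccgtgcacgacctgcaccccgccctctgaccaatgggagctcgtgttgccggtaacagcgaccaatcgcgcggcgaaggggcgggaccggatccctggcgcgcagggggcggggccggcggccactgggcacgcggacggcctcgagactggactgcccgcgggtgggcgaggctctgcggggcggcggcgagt
Per1: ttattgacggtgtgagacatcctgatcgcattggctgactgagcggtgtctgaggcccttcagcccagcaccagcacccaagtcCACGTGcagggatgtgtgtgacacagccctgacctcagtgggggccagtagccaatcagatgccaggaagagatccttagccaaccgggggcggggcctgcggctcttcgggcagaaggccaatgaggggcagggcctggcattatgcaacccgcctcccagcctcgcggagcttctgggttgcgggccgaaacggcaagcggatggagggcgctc
Tef: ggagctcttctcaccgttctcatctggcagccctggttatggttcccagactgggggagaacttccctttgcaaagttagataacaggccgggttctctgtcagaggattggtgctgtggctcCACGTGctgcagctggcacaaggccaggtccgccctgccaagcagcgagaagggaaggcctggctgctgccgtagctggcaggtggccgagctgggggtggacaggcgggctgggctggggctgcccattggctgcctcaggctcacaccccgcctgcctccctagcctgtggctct
Cry1: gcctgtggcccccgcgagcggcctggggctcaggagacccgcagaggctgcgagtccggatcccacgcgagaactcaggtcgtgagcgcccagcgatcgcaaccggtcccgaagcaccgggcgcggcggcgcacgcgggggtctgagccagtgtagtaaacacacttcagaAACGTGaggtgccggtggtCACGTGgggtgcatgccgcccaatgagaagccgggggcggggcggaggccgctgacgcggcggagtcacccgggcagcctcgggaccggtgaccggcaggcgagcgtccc
Nfil3: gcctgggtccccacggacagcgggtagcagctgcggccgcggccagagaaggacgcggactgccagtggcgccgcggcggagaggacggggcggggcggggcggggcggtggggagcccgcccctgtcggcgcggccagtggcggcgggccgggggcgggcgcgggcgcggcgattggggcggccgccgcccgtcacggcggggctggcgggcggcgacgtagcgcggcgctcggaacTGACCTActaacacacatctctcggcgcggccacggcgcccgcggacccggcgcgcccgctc
Arntl: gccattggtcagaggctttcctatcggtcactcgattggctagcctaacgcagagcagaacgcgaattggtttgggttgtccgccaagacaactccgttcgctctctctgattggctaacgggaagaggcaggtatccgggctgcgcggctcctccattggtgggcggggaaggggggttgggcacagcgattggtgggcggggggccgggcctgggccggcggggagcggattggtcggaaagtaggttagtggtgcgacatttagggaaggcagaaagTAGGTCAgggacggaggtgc

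The Per3 window held 2 D-boxes, which began at −205 and −158 from the start site. A D-box of these letters was present in 1.06% of the 32851 promoter windows of the table. An E-box was present in Per1 (−166), Cry1 (−60) and Tef (−127), against 7.15% of all windows. Cry1 also held an E'-box (−79), as did Nr1d1 (−28), against 4.68% of all windows. No member's window held the ROR core, which was present in 2.61% of all windows, while Nfil3 (−12) and Arntl (31 bases after the start) each held it. Tef had an E-box in its other window too (−138), while the other windows of Per1 and Arntl held no match. The windows of Clock, Npas2, Nr1d2 and Dbp held none of these letters, which says nothing of sites elsewhere in those genes.

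The 6 libraries had nearly equal totals, between 19349418 and 19730236 estimated counts. Nek7, the deleted gene, was at 25.2% of its WT mean in Hom livers and was lower in each of them. Hom replicate 1 stood apart from the others. Neither Ddx3y nor Kdm5d, both Y-linked, was counted in it, while the other 5 livers had at least 243 counts of each. Read by these genes, Hom replicate 1 came from a female mouse and the other 5 livers from males. The paper states that its knock-out experiments included mice of both sexes. Sex was thus not balanced between the groups, and its part in the differences was not tested. Levels are given as CPM, the rounded counts as a share of the library after TMM scaling, and differences as log2 fold changes (Hom against WT) tested by edgeR, with p-values adjusted over all 13805 genes. With 3 mice against 3, an exact two-sided permutation test of a single gene cannot give a p under 0.1, and it gave 0.1 wherever the groups did not overlap and their means were compared.

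Of the 10 clock genes, 5 were higher in Hom livers (Per2, Per3, Nr1d2, Dbp and Tef), 3 were lower (Clock, Npas2 and Cry1), and Per1 and Nr1d1 did not pass the test at an adjusted p under 0.05 (edgeR). That is 8 of 10, where 41.7% of all tested genes were called, 21.5% higher and 20.1% lower. The median log2 fold change of the 10 was 0.38, that of all tested genes −0.0018, and the members ranged from −2.43 to 4.72. In 8 of the 10 the WT and Hom livers did not overlap, 5 with Hom livers higher and 3 with Hom livers lower, against 55.6% of all tested genes (28.7% higher and 27.0% lower). Without Hom replicate 1 the genes called higher were 3, without Hom replicate 2 they were 3 and without WT replicate 2 they were 2. With libraries scaled by size alone, the median of all genes moved by 0.45 and the members split into 5 higher and 1 lower. With libraries scaled to the hepatocyte markers it moved by 0.85 and the split was 6 higher and 1 lower.

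**Figure D1:**
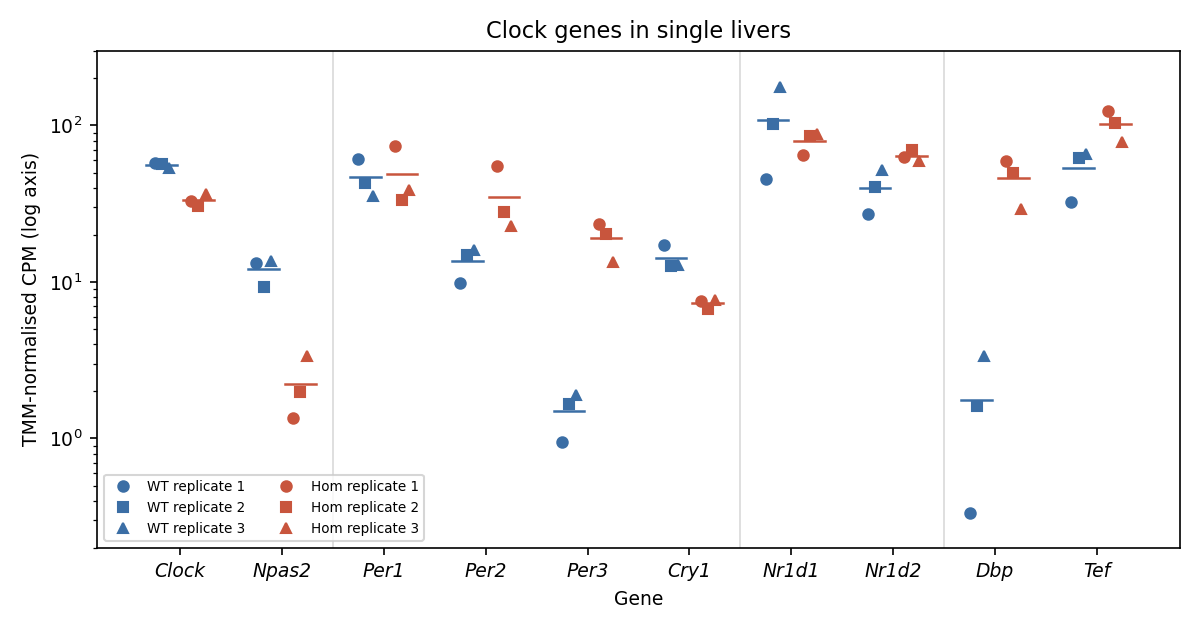
Level of each of the 10 clock genes in each liver, as TMM-normalised CPM on a log axis. Circles, squares and triangles are replicates 1, 2 and 3, blue for WT and red for Hom, and lines are group means. Dbp and Per3 were lowest in WT livers and far higher in every Hom liver, Npas2 showed the opposite, and the groups of Per1 and Nr1d1 overlapped.

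Among the activators, Npas2, which encodes the alternative partner of BMAL1, fell most. Replicates 1, 2 and 3 of the WT group had 13.3, 9.30 and 13.7 CPM, and those of the Hom group, in the order used throughout, had 1.35, 1.98 and 3.36 CPM. Every Hom liver lay under every WT liver, and Hom replicate 1 was lowest. The log2 fold change was −2.43 (standard error, SE, 0.34, adjusted p = 0.0022, edgeR), with the Hom mean at 18.5% of the WT mean. Clock, which encodes the main partner of BMAL1, was at 57.6, 56.3 and 53.2 CPM in WT livers and at 33.1, 30.4 and 36.6 CPM in Hom livers. The groups were tight and apart on this scale, with a log2 fold change of −0.74 (SE 0.091, adjusted p = 0.00144, edgeR). The direction for Clock depends on the scaling, since it was −0.29 by library size alone (adjusted p = 0.0754) and 0.11 when scaled to hepatocyte markers (adjusted p = 0.529).

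The balance between the 2 partners of BMAL1 does not depend on scaling. The ratio of Npas2 to Clock in TPM, which is also corrected for gene length, was 0.558, 0.404 and 0.627 in WT livers and 0.0996, 0.158 and 0.224 in Hom livers. The mean ratio was thus 0.529 ± 0.114 in WT livers (SD, n = 3) and 0.160 ± 0.0623 in Hom livers (SD, n = 3; exact permutation test, two-sided p = 0.1, the smallest possible). Clock was the more abundant of the pair in all 6 livers. The pair was set in a ratio after the values were seen.

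The Period genes encode the repressors that close the loop, and they did not move alike. Per3 was at 0.949, 1.67 and 1.91 CPM in the WT livers, from 17, 26 and 31 counts, and at 23.5, 20.2 and 13.4 CPM in the Hom livers, from 503, 490 and 311 counts. The lowest Hom liver was far above the highest WT liver. The mean rose 12.6-fold, a log2 fold change of 3.66 (SE 0.32, adjusted p = 0.000498, edgeR). The promoter window of Per3 holds the pair of D-boxes shown above, and whether they bear on this difference was not tested.

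Per2 was at 9.88, 14.9 and 16.0 CPM in WT livers and at 54.9, 27.8 and 22.7 CPM in Hom livers. The groups did not overlap, but Hom replicate 1 was well above the other two. The log2 fold change was 1.37 (SE 0.36, adjusted p = 0.0213, edgeR), and 0.89 without Hom replicate 1. Per2 did not pass the threshold without WT replicate 1 (adjusted p = 0.0567) or without WT replicate 2 (adjusted p = 0.0607). Per1, which also answers acutely to glucocorticoids and other signals, was at 61.4, 43.0 and 35.2 CPM in WT livers and at 74.4, 33.4 and 38.6 CPM in Hom livers. The groups overlapped, and the log2 fold change of 0.068 (SE 0.34, adjusted p = 0.886, edgeR) turned to −0.37 without Hom replicate 1 and to −0.10 without WT replicate 3. When libraries were scaled to hepatocyte markers, Per1 passed the threshold at 0.86 (adjusted p = 0.0107).

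Set against Per1 in the same liver, in TPM, Per3 was at a ratio of 0.0121, 0.0305 and 0.0419 in WT livers and of 0.248, 0.476 and 0.272 in Hom livers. The groups did not overlap (exact permutation test, two-sided p = 0.1). The ratio of Per2 to Per1 was 0.135, 0.294 and 0.383 in WT livers and 0.620, 0.705 and 0.490 in Hom livers, again with no overlap (exact permutation test, two-sided p = 0.1). Per1 was the most abundant Period transcript in all 6 livers by TPM. These ratios to Per1 were chosen after the values were seen, with Per2 and Per3 already apart between the groups.

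Cry1, which encodes the partner of the PER proteins in repression, was at 17.1, 12.7 and 12.8 CPM in WT livers and at 7.51, 6.76 and 7.67 CPM in Hom livers. No Hom liver reached the WT range, and the Hom livers lay close to each other. The log2 fold change was −0.96 (SE 0.16, adjusted p = 0.0038, edgeR). It kept its sign but not its call with library size alone (−0.52, adjusted p = 0.0614) and with hepatocyte marker scaling (−0.11, adjusted p = 0.651).

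The nuclear receptors of the stabilising loop differed from each other. Nr1d2, encoding REV-ERBβ, was at 27.4, 40.3 and 51.9 CPM in WT livers and at 62.5, 69.9 and 59.6 CPM in Hom livers. The Hom livers were all higher, although WT replicate 3 came near them. The log2 fold change was 0.68 (SE 0.22, adjusted p = 0.0402, edgeR). Leaving out WT replicate 2 or any of the Hom livers, or correcting for gene length, left Nr1d2 without a call (adjusted p = 0.0579 to 0.117), with log2 fold changes of 0.61 to 0.73.

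Nr1d1, encoding REV-ERBα, was at 45.7, 102 and 177 CPM in WT livers and at 65.0, 85.6 and 88.4 CPM in Hom livers. The WT livers spread 3.87-fold, more widely than the Hom livers at 1.36-fold, and they enclosed the Hom livers. The log2 fold change of −0.44 (SE 0.43) did not pass the test (adjusted p = 0.438, edgeR). Without WT replicate 1 it was −0.81 and passed (adjusted p = 0.0445), and without WT replicate 3 it was 0.10. It was 0.050 by library size alone and 0.42 with hepatocyte marker scaling. Nr1d1 overlaps Thra on the opposite strand, and the strandedness of the counting is not given in the sources used here. Thra was at 28.3 to 31.7 CPM in WT livers and at 23.7 to 28.2 CPM in Hom livers.

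The largest rise among the 10 was that of Dbp, a PAR bZIP activator of many rhythmic liver genes. It was at 0.335, 1.60 and 3.38 CPM in the WT livers and at 59.7, 49.9 and 29.2 CPM in the Hom livers. Behind the WT values were 6, 25 and 55 counts, and behind the Hom values 1278, 1210 and 678. The WT livers alone spread 10.1-fold, and every Hom liver was far above all of them. The mean rose 26.1-fold, a log2 fold change of 4.72 (SE 0.60, adjusted p = 0.0016, edgeR), and it was 4.201 without WT replicate 1 and 5.61 without WT replicate 3. Dbp shares its locus with Sphk2 on the opposite strand, which was at 37.2 to 73.2 CPM in WT livers and at 50.9 to 62.5 CPM in Hom livers (log2 fold change 0.017, adjusted p = 0.959, edgeR).

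Tef, a further PAR bZIP gene, was at 32.3, 62.2 and 65.5 CPM in WT livers and at 123.7, 103.8 and 78.2 CPM in Hom livers. No Hom liver fell within the WT range. The log2 fold change was 0.94 (SE 0.29, adjusted p = 0.0365, edgeR). It did not pass without WT replicate 2 (adjusted p = 0.0672), Hom replicate 1 (0.0962) or Hom replicate 2 (0.0900). Hlf, the remaining PAR bZIP gene, was at 43.5 to 47.9 CPM in WT livers and at 36.9 to 48.0 CPM in Hom livers (log2 fold change −0.12, adjusted p = 0.416), but at 0.33 by library size alone (adjusted p = 0.0217) and 0.72 with hepatocyte marker scaling (adjusted p = 0.00146). The PAR bZIP transcripts thus differed widely in the size of their change on every scaling run.

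NFIL3 binds the same D-boxes as the PAR bZIP proteins and represses from them. Nfil3 was at 71.9, 49.0 and 52.5 CPM in WT livers and at 12.7, 11.1 and 20.7 CPM in Hom livers. It fell with a log2 fold change of −1.96 (SE 0.26, adjusted p = 0.00188, edgeR). The ratio of Dbp to Nfil3 in TPM was therefore 0.00556, 0.0399 and 0.0786 in WT livers and 5.76, 5.66 and 1.78 in Hom livers. Nfil3 exceeded Dbp in every WT liver, and Dbp exceeded Nfil3 in every Hom liver (exact permutation test, two-sided p = 0.1). This pair was chosen after the values were seen. Each gene alone already separated the groups, in opposite directions, so the ratio could not overlap and its p adds no support.

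**Figure D2:**
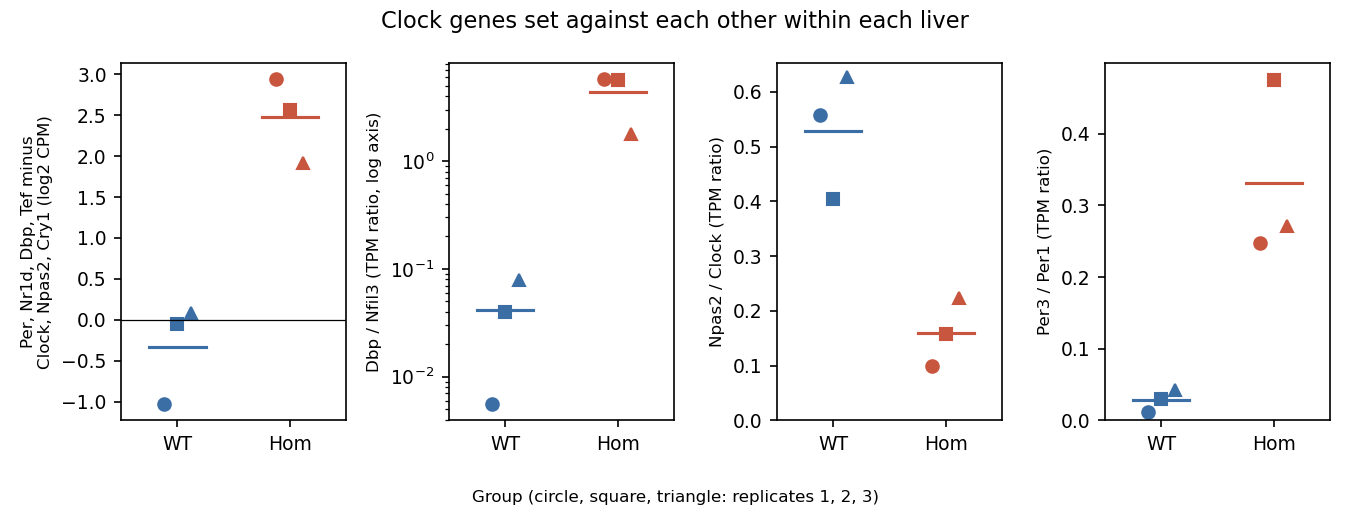
Relations between clock genes within single livers, on which library scaling has little or no bearing. The panels show, for WT (blue) and Hom (red), the mean log2 CPM of the Per, Nr1d, Dbp and Tef genes minus that of Clock, Npas2 and Cry1, and the TPM ratios of Dbp to Nfil3 (log axis), Npas2 to Clock and Per3 to Per1; lines are group means. In all 4 panels the 3 Hom livers lie apart from the 3 WT livers.

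As a description over the members, the mean log2 CPM of the 7 genes with a known peak in the light phase or evening was set against that of the 3 with a known peak late in the night or early morning. The difference was −1.03, −0.055 and 0.087 in the WT livers and 2.94, 2.56 and 1.92 in the Hom livers. The Hom mean exceeded the WT mean by 2.80 on the log2 scale, and by 2.46 to 3.08 with a liver left out.

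The livers of a group did not carry the same clock profile either. For all 5 genes that were higher in Hom livers, WT replicate 1 was the lowest WT liver and WT replicate 3 the highest. For the same 5 genes Hom replicate 3 was the lowest Hom liver, and Hom replicate 1 was the highest in 4 of them. Hom replicate 3 was also the highest Hom liver for all 3 genes that were lower in Hom livers. It was thus the Hom liver nearest to the WT group in all 8 of these genes.

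The order of the members by TPM, a level corrected for gene length, changed between the groups. In WT livers Nr1d1 came first (55.4 ± 30.7 TPM, SD, n = 3), followed by Tef (17.6 ± 4.49), Per1 (14.8 ± 5.99), Nr1d2 (12.3 ± 2.83), Clock (8.35 ± 1.26) and Cry1 (7.003 ± 2.10), of which each neighbouring pair from Tef to Cry1 overlapped. Npas2 (4.43 ± 1.18) and Per2 (3.50 ± 0.523) overlapped with each other, as did Dbp (1.43 ± 1.203) and Per3 (0.357 ± 0.0874) at the bottom. In Hom livers Nr1d1 (65.5 ± 14.4 TPM, SD, n = 3), Dbp (62.1 ± 18.8) and Tef (53.3 ± 9.61) overlapped at the top. Dbp thus moved from rank 9 to rank 2. Nr1d2 (30.9 ± 4.199), Per1 (22.8 ± 8.61) and Per2 (13.8 ± 5.75) followed, then Clock (7.67 ± 0.801), Per3 (7.10 ± 1.70) and Cry1 (5.46 ± 0.352), and Npas2 (1.26 ± 0.615) was lowest and apart from Cry1. TPM values are shares of a library, so the levels of a gene in WT and Hom livers are compared only through the tests above.

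**Figure D3:**
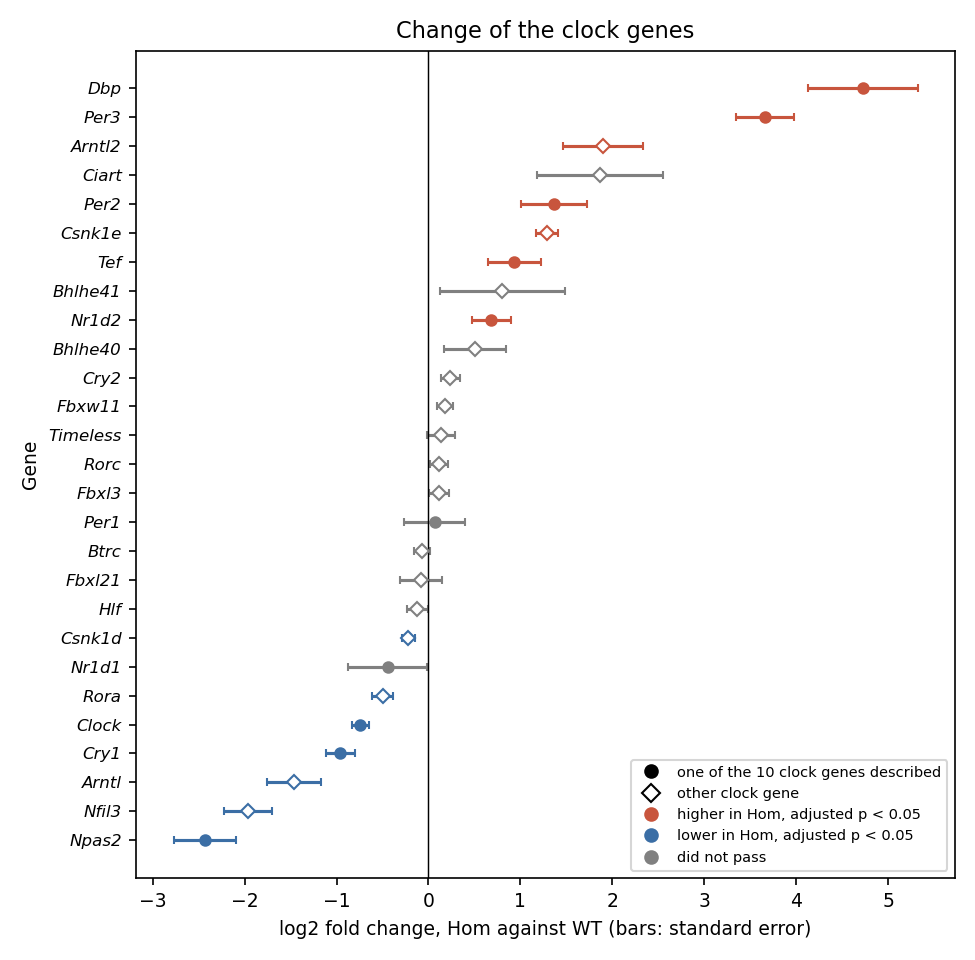
Log2 fold change of Hom against WT livers for the 10 clock genes described (filled circles) and 17 other clock genes (open diamonds), with the standard error as bars. Red marks genes called higher in Hom livers and blue genes called lower (edgeR, adjusted p under 0.05), and grey those that did not pass. Dbp (4.72) and Per3 (3.66) lie at the top and Npas2 (−2.43), Nfil3 (−1.96) and Arntl (−1.46) at the bottom.

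Of 18 other genes of the clock, 17 were tested (Rorb had under 6 counts in every liver and was not). Arntl, Nfil3, Rora and Csnk1d were lower, Arntl2 and Csnk1e were higher, and 11 did not pass. This was 6 of 17 called, under the 41.7% of all tested genes, with a median log2 fold change of 0.12. In 6 of the 17 the groups did not overlap, also under the 55.6% of all tested genes. With library size alone 11 were higher and 2 lower, so that the balance of this list rests on the scaling. Arntl, which encodes BMAL1, was at 27.4, 26.1 and 31.3 CPM in WT livers and at 6.11, 9.52 and 15.1 CPM in Hom livers. It fell with a log2 fold change of −1.46 (SE 0.30, adjusted p = 0.00871, edgeR), and Hom replicate 3 was again nearest to the WT livers; with hepatocyte marker scaling it was −0.59 and did not pass (adjusted p = 0.11). The ratio of Nr1d1 to Arntl in TPM ran from 1.63 to 5.37 among WT livers and from 5.64 to 10.2 among Hom livers (exact permutation test, two-sided p = 0.1). This pair too was chosen after the values were seen.

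Csnk1e, which encodes the casein kinase 1 epsilon that phosphorylates PER proteins, was at 7.63 to 9.83 CPM in WT livers and at 21.5 to 22.5 CPM in Hom livers (log2 fold change 1.29, SE 0.12, adjusted p = 0.000616, edgeR). Its paralog Csnk1d, which acts in the same step, had a log2 fold change of −0.22 (adjusted p = 0.0384, edgeR). It did not pass with any 1 liver left out (adjusted p of 0.0662 to 0.0976, edgeR). Nor did it pass with upper-quartile factors, either other filter or the replicate block (adjusted p of 0.0594 to 0.174, edgeR). It turned to 0.24 by library size alone (not called), and with hepatocyte marker scaling it was called higher (0.64, adjusted p = 0.00663, edgeR). Arntl2, a paralog of Arntl, was at 0.321 to 1.06 CPM in WT livers and at 1.90 to 2.97 CPM in Hom livers (log2 fold change 1.90, adjusted p = 0.0135, edgeR). It rested on 5 to 19 counts in WT livers and did not pass without Hom replicate 3 (adjusted p = 0.0574). Rora, an activator at ROR elements, had a log2 fold change of −0.50 (adjusted p = 0.0146, edgeR), −0.045 by library size alone and 0.35 with hepatocyte marker scaling, and did not pass without WT replicate 2 (adjusted p = 0.0528). Cry2, the paralog of Cry1, was at 20.6 to 24.4 CPM in WT livers and at 24.3 to 29.3 CPM in Hom livers and did not pass (log2 fold change 0.24, adjusted p = 0.112), but it passed by library size alone (0.69), with upper-quartile factors (0.33) and with hepatocyte marker scaling (1.08). Ciart, a repressor of the CLOCK and BMAL1 pair whose promoter window held 3 E-boxes, was at 1.34, 2.50 and 1.54 CPM in WT livers and at 13.6, 3.71 and 2.29 CPM in Hom livers, with overlap between the groups (adjusted p = 0.0655); it was chosen after its values were seen.

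Of 18 rhythmic liver genes under the control of the clock or the PAR bZIP factors, 4 were higher, 10 were lower and 4 did not pass (edgeR), where 41.7% of all tested genes were called, with a median log2 fold change of −0.61. With hepatocyte marker scaling 5 were lower and 6 higher, so the balance of this list too rests on the scaling. In 14 of the 18 the groups did not overlap, against 55.6% of all tested genes. The higher genes with the smallest p were Wee1, which encodes a kinase that holds back entry into mitosis, Cyp7a1, the rate-limiting enzyme of bile acid synthesis, and Nampt, of NAD salvage. Wee1 was at 1.45, 1.48 and 2.03 CPM in WT livers and at 9.941, 12.04 and 8.061 CPM in Hom livers (log2 fold change 2.60, SE 0.23, adjusted p = 0.000524, edgeR). Cyp7a1 and Nampt had log2 fold changes of 2.12 and 1.17 (adjusted p = 0.00457 and 0.00523, edgeR).

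The lower genes with the smallest p were Cdkn1a, which encodes the cell cycle inhibitor p21, with a log2 fold change of −1.95, Ppara, the fatty acid sensor, with −1.30, and Lpin1, a phosphatidate phosphatase, with −3.23 (adjusted p = 0.000159, 0.00159 and 0.00188, edgeR). Elovl3, a fatty acid elongase with a strong daily rhythm in liver, changed most in the list and was chosen after its values were seen. It was at 229.6, 734.5 and 805.1 CPM in WT livers and at 0.513, 1.73 and 7.80 CPM in Hom livers, which gave a log2 fold change of −7.45 (SE 1.05, adjusted p = 0.00229, edgeR), and −9.01 without Hom replicate 3. Ppara did not pass with hepatocyte marker scaling (−0.42, adjusted p = 0.101).

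**Figure D4:**
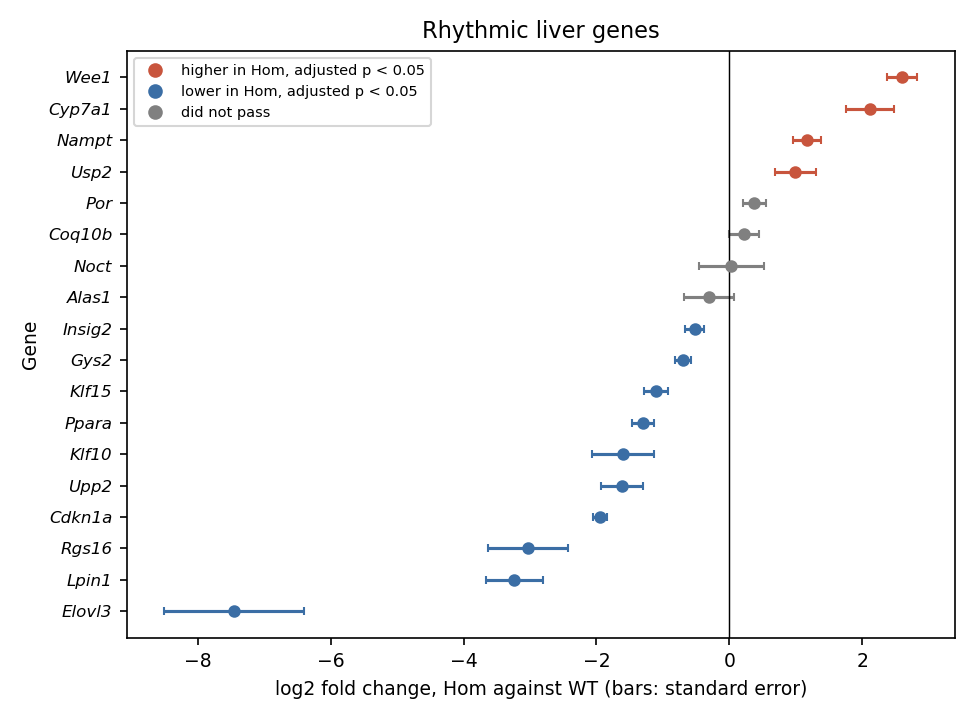
Log2 fold change of Hom against WT livers for 18 rhythmic liver genes, with the standard error as bars; red, blue and grey mark genes called higher, called lower and not past an adjusted p of 0.05 (edgeR). Wee1 (2.60) and Cyp7a1 (2.12) lie at the top and Elovl3 (−7.45) at the bottom.

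Hormonal and thermal cues also reach the liver clock. Of 10 genes of glucocorticoid action or response, 5 were lower, 2 higher and 3 did not pass (edgeR), where 41.7% of all tested genes were called, with a median log2 fold change of −0.65. With hepatocyte marker scaling 3 were lower and 4 higher, so the balance of this list rests on the scaling. Hsd11b1, which regenerates active glucocorticoid, Zbtb16 and Tsc22d3 had log2 fold changes of −1.87, −3.09 and −2.05 (adjusted p = 0.000205, 0.000476 and 0.00154, edgeR). The metallothionein genes Mt1 and Mt2 were higher (log2 fold change 3.03 and 3.02, adjusted p = 0.028 and 0.0217, edgeR), with Mt1 at 977, 152.7 and 215.8 CPM in Hom replicates 1, 2 and 3; without WT replicate 2 or 3 neither passed, and without Hom replicate 1 the log2 fold changes were 1.75 for Mt1 (adjusted p = 0.0531) and 1.82 for Mt2 (adjusted p = 0.032). Klf9 and Tat were also lower (log2 fold change −1.04 and −1.37, adjusted p = 0.00585 and 0.0187, edgeR). Fkbp5 and Sgk1 did not pass (log2 fold change −0.26 and 0.11, adjusted p = 0.551 and 0.784, edgeR). These last genes were chosen after their values were seen. Tat belongs to this list and to the hepatocyte markers. Of 10 temperature response genes, Cirbp and Rbm3, both cold-induced RNA-binding proteins, were higher (log2 fold change 0.48 and 0.43, adjusted p = 0.0223 and 0.0313, edgeR), Dnajb1 was lower (−0.84, adjusted p = 0.0123) but at 0.0094 with hepatocyte marker scaling, and 7 did not pass. These 3 of 10 called are fewer than the 41.7% of all tested genes. Without WT replicate 2, WT replicate 3, Hom replicate 1 or Hom replicate 2 neither Cirbp nor Rbm3 passed.

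Markers of several of the liver's cell types differed between the groups, and their counts stand beside the 41.7% of all tested genes that were called (21.5% higher and 20.1% lower). Of 24 hepatocyte markers tested, 15 were lower and 9 did not pass, with a median log2 fold change of −0.68 and a summed level of 205900 to 242600 CPM in WT and 97650 to 140700 CPM in Hom livers. Of 12 cholangiocyte markers 11 were higher (median 3.02, summed level 74.4 to 106.7 CPM in WT and 690.7 to 932.6 CPM in Hom livers). Of 12 stellate cell and fibroblast markers 7 were higher and 1 lower (median 1.51, 369.1 to 432.8 and 762 to 867.6 CPM), and of 12 macrophage and leukocyte markers 4 were higher and 1 lower (median 0.86, 299.5 to 687.8 and 579.7 to 802.5 CPM, with overlap between the groups), a share called no larger than that of all tested genes. Of 10 endothelial markers 5 were lower (median −0.53, 281.9 to 379.7 and 222.6 to 227.4 CPM). All markers tested had counts in all 6 livers. In bulk tissue, fewer cells of a type and less RNA per cell cannot be told apart, and the part of cell composition in the clock gene differences was not tested. With libraries scaled to the hepatocyte markers, Npas2 was lower (−1.58) and Per2, Per3, Nr1d2, Dbp and Tef were higher (1.55 to 5.55), as in the values above, but Clock (0.11, adjusted p = 0.529) and Cry1 (−0.11, adjusted p = 0.651) were not called, Nr1d1 turned to 0.42 (not called) and Per1 was called higher.

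The genes whose profile over the 6 livers was nearest to that of a member were found by the root mean square difference of log2 CPM, each profile centred on its own mean, among 12865 genes with a mean of at least 1 CPM. For Clock this was Sall2 (0.045) and for Cry1 Nfxl1 (0.044). Dbp had no such close match: the nearest outside the list was Smpd3 (0.59) and the nearest member Per3 (0.78). The nearest gene outside the list lay at 0.20 for Npas2 and for Per3, and at 0.19 for Nr1d1, which was not called. The measure is not scaled to the size of a change, so a profile with a large change tends to lie farther from others. Tef and Nr1d2 were each other's nearest member (0.24).

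**Figure D5:**
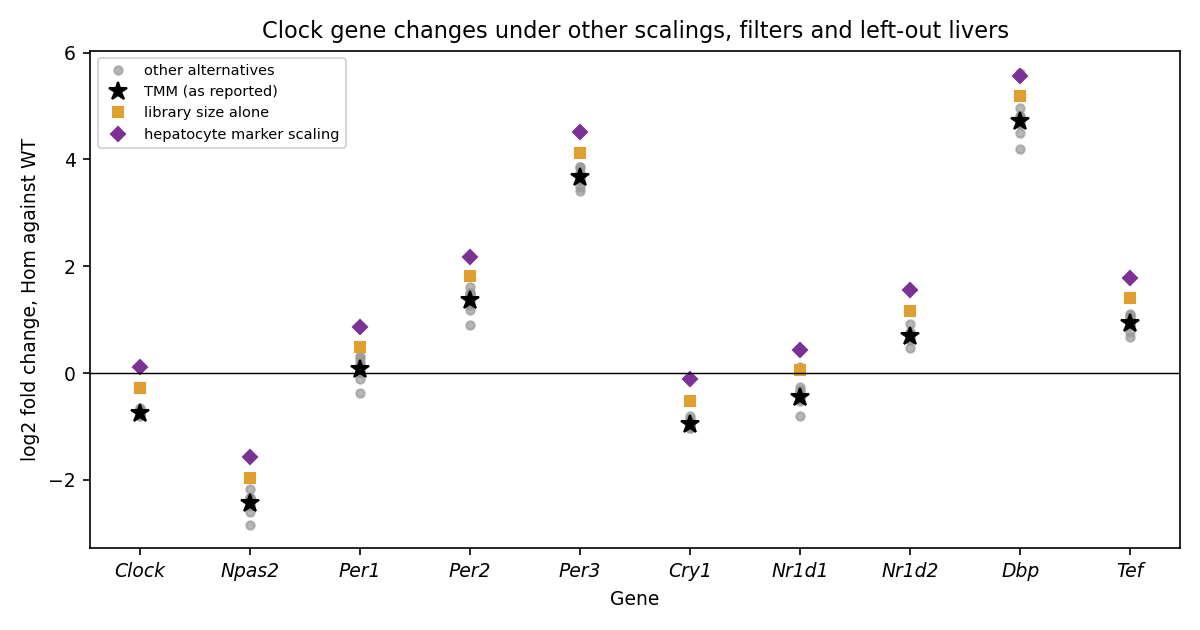
Log2 fold change of each of the 10 clock genes, Hom against WT, as reported (star) and under each alternative setting; gold squares are library size alone, purple diamonds are hepatocyte marker scaling, and grey circles are the other tools, filters, corrections and left-out livers. Npas2 stays below 0 and Per2, Per3, Nr1d2, Dbp and Tef above 0 in each setting run, while Clock, Per1 and Nr1d1 cross 0 in at least 1 of them.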

How the data were processed

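RNA of whole liver from 3 WT and 3 Hom mice was sequenced on DNBSEQ by BGI Genomics. The submitters' processing notes name HISAT2 2.0.4, Bowtie2 2.2.5, RSEM 1.2.12 and the build mm9, without their roles; strandedness is not given in the sources used here. The authors deposited each estimated count, not normalized between libraries, beside FPKM and TPM values, for 17975 genes in each liver. The deposited TPM values are scaled by gene length and to a fixed total per liver, and the deposited FPKM values by gene length and library size. Columns of group means carry crossed names and were not used.

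Estimated counts (65.9% were whole) were rounded and tested in R 4.3.3 with edgeR 4.0.16 (filterByExpr, TMM factors of 0.806 to 1.23, glmQLFit and glmQLFTest, Hom against WT). A gene was called at p under 0.05 after Benjamini-Hochberg adjustment over all 13805 genes, with no minimum fold change. TPM was used for levels between genes and ratios, FPKM for the gene length it implies, and log2 levels had 0.5 CPM added. Standard errors derive from the F statistic. The procedure was tested on simulated data. No pair of libraries of a group agreed within sampling noise (chi-square over its degrees of freedom, 22.1 at the lowest).

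Named were all 10 members, Nek7, the other clock genes past the threshold with Arntl, Nfil3, Hlf and Cry2, the 3 genes of smallest p in each direction of the other lists, and nearest profiles. The pairs of genes set in ratios were chosen after values were seen. The members and lists were chosen with earlier results of these data known. Alternatives were DESeq2 1.42.0, 3 scalings, 2 filters, a gene length correction, the replicate block and each liver left out. Promoters are from RefSeq on GRCm38.p6, another build than mm9, so no position of the files was used; overlaps between genes are from GENCODE on GRCm38.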

Additional observations from a re-analysis of the deposited data

How the results depend on the processing

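Over 34 genes and 474 comparisons with an alternative, 410 kept direction and side of the threshold and 47 kept only the direction. A further 5 kept the direction and passed where the reported fit did not, and 12 turned direction. Among those that turned, Hlf passed under both scalings that turned it. Csnk1d, called lower in the reported fit, was called higher with hepatocyte marker scaling (0.64, adjusted p = 0.00663, edgeR). Dbp, Per3 and Npas2 were called in the same direction in every alternative in which they were tested; Dbp was not tested with at least 10 counts in every liver, since WT replicate 1 had 6.

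Scaling moved the counts over all genes most, while the count of members called higher moved most with a liver left out. With library size alone, 642 genes were lower and 6574 higher, 1 clock member was lower, 2 other clock genes were lower and 11 higher, and 0 temperature genes were lower by edgeR (0 also at an unadjusted p under 0.05; DESeq2 with its own factors gave 3). With hepatocyte marker scaling, 261 genes were lower and 10244 higher, 1 clock member was lower, 1 other clock gene was lower and 14 higher, 5 output genes were lower, 3 glucocorticoid genes were lower and 4 higher, and 0 temperature genes were lower (0 at an unadjusted p under 0.05) and 6 higher. The median of all genes shifts under both, so the counts follow from the scaling itself. The log2 fold changes that turned were, by library size alone, Nr1d1 (0.050), Hlf (0.33) and Csnk1d (0.24); with hepatocyte marker scaling, Clock (0.11), Nr1d1 (0.42), Hlf (0.72), Rora (0.35), Csnk1d (0.64) and Dnajb1 (0.0094); without WT replicate 3, Per1 (−0.10) and Nr1d1 (0.10); and without Hom replicate 1, Per1 (−0.37). Without WT replicate 1, Per1 was at 0.31 and Nr1d1 at −0.81. Upper-quartile factors gave 4 other clock genes higher, at least 10 counts in every liver gave 1 (of 15 tested), and DESeq2 gave 3 temperature genes lower; the cause was not tested.

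With 1 liver left out, 2 to 5 members were higher (2 without WT replicate 2, 3 without Hom replicate 1 or 2) and 3 to 4 lower. Of the other clock genes 2 to 3 were lower (2 without WT replicate 2). Of the glucocorticoid genes 0 to 2 were higher by edgeR (0 without WT replicate 2 or 3, where 2 and 3 had an unadjusted p under 0.05, and 1 without Hom replicate 1; DESeq2 on all livers gave 2). Of the temperature genes 0 to 3 were lower (0 without Hom replicate 3, with 1 at an unadjusted p under 0.05, and 3 without WT replicate 2) and 0 to 2 higher (0 without WT replicate 2 or 3 or Hom replicate 1 or 2, with 2 or 3 at an unadjusted p under 0.05; 1 without WT replicate 1). Of all genes 1767 to 2750 were lower (1829 without Hom replicate 2, 1767 without Hom replicate 3).

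With the replicate block, 3 members and 1 temperature gene were higher, and 2214 genes were lower and 2383 higher. WT and Hom livers of the same number are different mice, and their deviations from the group means correlated at −0.0786 to −0.0176. Of the 6 livers, 0 correlated best with its own number. No pairing by number was seen, but with 3 livers per group this check is too weak to exclude shared collection or handling. Few counts limit Dbp and Per3 in WT livers.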
